A study of Mus musculus with 4 samples.

Results

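The 4 TEAD transcription factor genes Tead1, Tead2, Tead3 and Tead4 and the VGLL cofactor genes Vgll2, Vgll3 and Vgll4 were examined for binding sites in cardiac fibroblasts of newborn mice. A peak belonged to a gene when its summit lay inside the annotated span of the gene or within 50 kb of either end. This rule took 28 of 21285 peaks in list 1 and 28 of 21218 peaks in list 2, or 0.132% of each list. The lists are 2 deposited sets of ChIP-seq peaks, each called against input, which is sonicated chromatin sequenced without immunoprecipitation. The study had 4 libraries, 1 in each of the groups OE-TEAD1 ChIP, OE-TEAD1 input, OE-NC ChIP and OE-NC input, where OE-TEAD1 is overexpression of TEAD1 and OE-NC its negative control. The 4 libraries share the cell type and the formaldehyde fixation. The labels tie neither list to OE-TEAD1 or OE-NC, so differences between the lists compare a pair of libraries of unknown condition, without replicates. The sources used here name neither the antibody nor the vector that carried TEAD1.

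TEAD proteins bind DNA through a conserved TEA domain and depend on partner proteins to activate or repress transcription. The Hippo pathway controls the partners YAP and TAZ, which enter the nucleus and activate TEAD-bound genes when the pathway is off. VGLL proteins have no DNA-binding domain of their own and contact TEAD factors through a short Tondu domain, on a surface that in part overlaps the one used by YAP. The genes examined therefore encode the factor that was overexpressed, its paralogs and cofactors that contact TEAD factors.

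No called peak reached an annotated promoter of the 5 genes whose promoters could be read. RefSeq promoter sequences (GRCm38.p6, 250 bases before to 50 bases after each start) were matched for Tead2, Tead3, Vgll2, Vgll3 and Vgll4, in 7 windows, and not for Tead1 and Tead4. No peak of either list overlapped any of these 7 windows, against 1.80% of all 32851 promoter windows in list 1 and 1.67% in list 2. At shares this low, 0 of 7 is not a result about these genes. The letters GGAATG, the core of the motif known for TEAD factors, or CATTCC on the other strand, occurred in 4 of these 7 windows, which belong to 3 genes and overlap in part at Tead3, and in 14.7% of all windows. The matches of these 3 genes are shown because the windows held the letters and no called peak. Each line is written 5′ to 3′ on the strand of the gene with every match in capitals.
Tead3, chr17:28350706-28350735, minus strand: tccggccgggctCATTCCgtaCATTCCggc
Tead3, chr17:28350581-28350610, minus strand: aggtaagcccggGGAATGcaactcggaggc
Tead3, chr17:28350970-28350999, minus strand: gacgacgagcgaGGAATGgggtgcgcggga
Vgll3, chr16:65815114-65815143, plus strand: cccgcctccccaCATTCCggctaccctgcc
Vgll4, chr6:114969268-114969297, minus strand: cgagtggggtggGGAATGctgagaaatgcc

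The matches in the first 2 of these lines lay in a single Tead3 promoter window, which held 3 in all. At least 3 matches were found in 0.131% of all windows. The Vgll3 match began 63 bases and the Vgll4 match 82 bases before the annotated start. The AP-1 letters TGANTCA, searched on both strands, occurred in 7.81% of all windows and in 0 of the 7 windows of these genes. At that share, 0 of 7 is no result about these genes either. A match is a run of letters and not a bound site. The sequences under the peaks themselves were not analysed here.

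Tead1, Vgll3 and Vgll4 held most of the peaks. The other members held 0 or 1 each in list 1 and 0 to 4 in list 2, where Vgll2 had 4 against 5 for Vgll4. In list 1, 6 of the 7 genes had at least 1 summit, against 58.2% of 21627 protein-coding genes. In list 2, 5 of the 7 genes had a summit, against 59.0% of the same genes. At the rate of all protein-coding genes, 4.07 of 7 genes would have a summit in list 1 and 4.13 in list 2. With only 7 genes, counts this near to those rates are not a result about these genes. The median count was 1 in list 1 and 4 in list 2 over the 7 genes, against 1 in each list over all protein-coding genes.

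Counts followed the length of the window only in part. Tead1, the longest gene at 227.4 kb, had 13 summits in list 1 and 11 in list 2. A count that high was reached by 0.532% of protein-coding genes in list 1 and by 0.828% in list 2. Per length of window Tead1 stood out less, since its density was reached by 5.01% of protein-coding genes in list 1 and by 7.74% in list 2. Vgll3, with a span of 51.2 kb, had 7 summits in list 1 and 6 in list 2. Per 100 kb of window Vgll3 had 4.63 summits in list 1 and 3.97 in list 2, and Tead1 had 3.97 and 3.36. The medians over protein-coding genes were 0.773 in list 1 and 0.783 in list 2, and 3.42% and 4.70% of these genes reached the density of Vgll3. Vgll2 differed between the lists, with 0.944 summits per 100 kb in list 1 and 3.77 in list 2. Vgll4 had 5 summits in each list, or 2.39 per 100 kb. Together the windows of the 7 genes, 1204 kb in all, held 2.32 summits per 100 kb in each list.

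**Figure D1:**
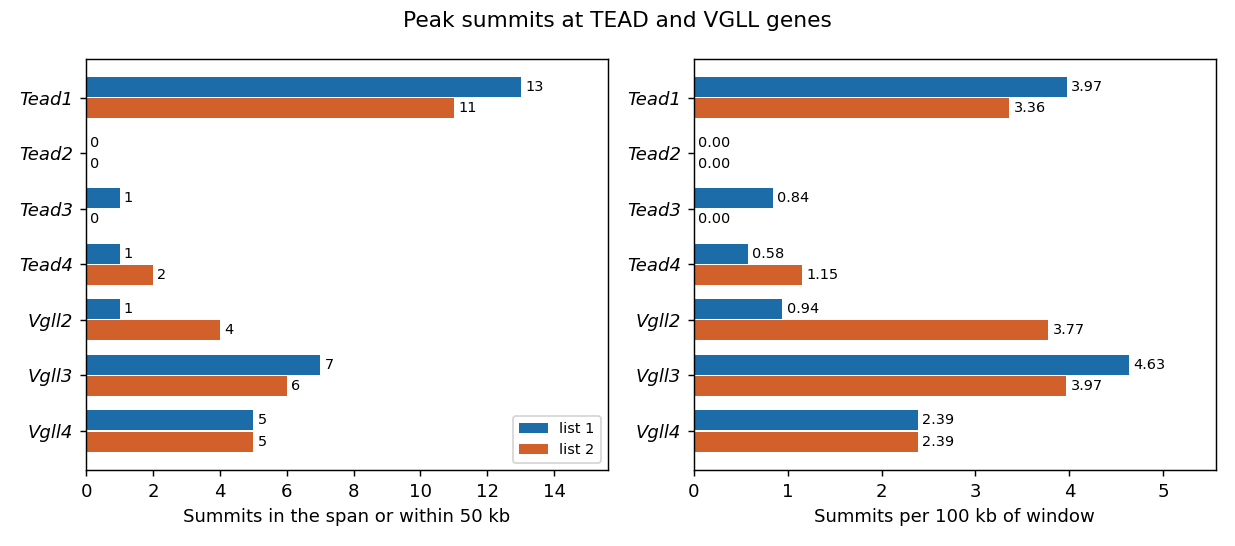
Number of peak summits in the span or within 50 kb of each gene (left) and the same number per 100 kb of window (right), for list 1 (blue, upper bar) and list 2 (orange, lower bar). Tead1 has the highest counts, 13 and 11, and Vgll3 the highest density, 4.63 and 3.97, while Tead2 has no bar in either list.

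**Figure D2:**
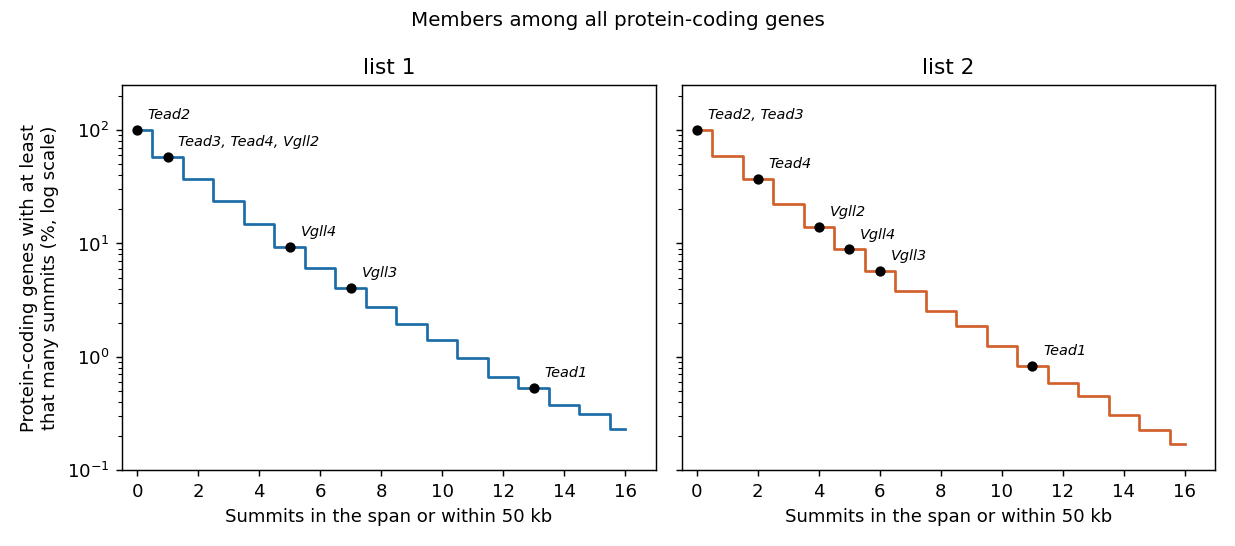
Percentage of the 21627 protein-coding genes (vertical axis, log scale) with at least the number of summits on the horizontal axis, for list 1 (left) and list 2 (right), with the 7 genes as black points. Tead1 lies where 0.532% and 0.828% of genes remain, and Tead2 lies at 0 summits in both panels. Counts are not scaled by length here, and by density 5.01% and 7.74% of genes reach Tead1.

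Tead1, the family member overexpressed in the study and a regulator of heart muscle genes, carried its strongest peak outside its own span. The summit lay 15.9 kb below the low-coordinate end of the span (chr7:112663000-112664483 in list 1, intergenic in the annotation). It was 26.1-fold over input in list 1 (70 ChIP fragments at the summit, exact Poisson 95% interval 20.4 to 32.8) and 49.2-fold in list 2 (140 fragments, 41.4 to 58.0). By −log10 q it ranked 841 in list 1 and 288 in list 2. The background was at the genome-wide floor of each list, 1.72 and 1.87 fragments, so local input did not exceed that floor. The peak was 1484 bp wide in list 1, and 1.14% of that list was as wide, against 990 bp in list 2.

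Inside the Tead1 span, 8 summits were called in each list, and 2 of these sites had the highest folds in both. The first lay 40.9 kb into the span and was 19.5-fold over input in list 1 (52 fragments, interval 14.6 to 25.4) and 29.7-fold in list 2 (84 fragments, 23.7 to 36.6). The second lay 189.9 kb into the span and was 19.8-fold in list 1 (53 fragments, interval 14.95 to 25.8) and 12.9-fold in list 2 (36 fragments, 9.15 to 17.7). Within list 1 the 2 sites could not be ordered beyond counting error, and within list 2 the first was higher than the second, with intervals that did not overlap. Their paired summits lay 5 and 2 bp apart. The site at 40.9 kb ended a run of summits that began 17.7 kb into the span, with 5 in list 1 and 4 in list 2. The other members of that run had folds of 5.21 to 6.83 in list 1 and 4.45 to 9.77 in list 2. The 9.77-fold summit had an interval of 6.56 to 14.1, which overlapped that of the site at 189.9 kb. In list 2 that site thus did not exceed all others beyond counting error.

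A further site of Tead1 lay 33.4 kb below the low-coordinate end in list 1 and 33.5 kb in list 2. It had 36 fragments in each list but a fold of 13.6 in list 1 (interval 9.63 to 18.7) and 7.31 in list 2 (5.18 to 10.05). The local background was 1.72 fragments in list 1 and 4.06 in list 2, the highest background of any peak of these genes. Here the difference in fold stood beside equal fragment numbers and unequal input. The summit nearest to an end of the span lay 2.56 kb beyond the high-coordinate end in list 1, at 7.41-fold, and 2.62 kb in list 2, at 5.58-fold. No summit lay within 1 kb of an end of any of the 7 genes.

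Of the Tead1 sites 10 were called by both, 3 only in list 1 and 1 only in list 2. The sites of list 1 alone were 6.68-fold, 5.21-fold and 5.30-fold over input, with 23, 15 and 14 fragments. The site of list 2 alone was 6.28-fold with 17 fragments. All 4 sites called in a single list had lower folds than the 3 strongest shared sites. Each was above the weakest shared Tead1 site of its list, 5.14-fold in list 1 and 4.45-fold in list 2. No other protein-coding gene span held a Tead1 summit, and in every case an end of Tead1 was nearer than an end of its neighbours Parva and Rassf10.

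**Figure D3:**
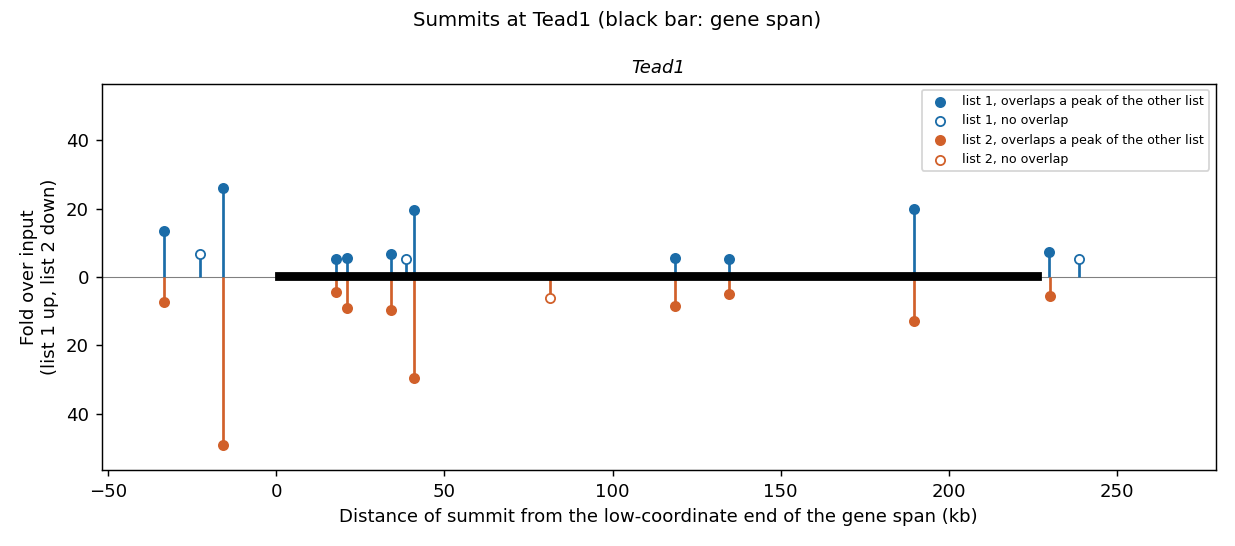
Fold over input (vertical axis, list 1 upward in blue, list 2 downward in orange) against the distance of each summit from the low-coordinate end of the Tead1 span in kb, with the span as a black bar. Filled points overlap a peak of the other list and open points do not. The strongest line in each direction, 26.1-fold and 49.2-fold, stands 15.9 kb below the span.

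The other TEAD genes had 0 to 2 summits per list. Tead2, a family member of the early embryo, had 0 summits in each list, and the nearest peak lay 180.1 kb from its span in list 1 and 103.8 kb in list 2. Its window of 117.7 kb is among the shorter ones. An absent call does not show an absent factor, since the weakest called summits rested on 8 fragments in each list.

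Tead3 had 1 summit in list 1, 4.45-fold over input (15 fragments, interval 2.62 to 7.17), and 0 in list 2. It lay 19.9 kb from Tead3 and 1.71 kb from Fance, a gene of the Fanconi DNA repair pathway, so it stood nearer to its neighbour. Tead4, known for the specification of the trophectoderm, had a single site inside its span, 18.5 kb from an end, with the summit at the same base in both lists (chr6:128282099-128282667 in list 1). It was 10.4-fold in list 1 (31 fragments, interval 7.18 to 14.6) and 7.68-fold in list 2 (21 fragments, 4.88 to 11.5). The intervals overlapped. A second Tead4 summit of list 2, 4.88-fold with 13 fragments, lay 45.04 kb beyond the gene inside Tulp3, which encodes a ciliary trafficking protein.

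Vgll3, a cofactor of muscle and mesenchymal cells, had its peaks packed near its start. In list 1, 4 summits lay in the first 15 kb of the span over 9.40 kb, and in list 2, 5 summits lay there over 10.4 kb. The strongest was 3.94 kb after the start in list 1 (chr16:65818766-65819698) and 3.88 kb in list 2. It was 23.7-fold over input in list 1 (72 fragments, interval 18.7 to 29.8) and 25.3-fold in list 2 (73 fragments, 19.9 to 31.8). Next came a site 8.72 and 8.69 kb after the start, 11.5-fold in list 1 (36 fragments, interval 8.13 to 15.8) and 16.5-fold in list 2 (49 fragments, 12.3 to 21.7). A site between them was 8.45-fold in list 1 (22 fragments) and 7.68-fold in list 2 (21 fragments). All 3 sites had overlapping intervals between the lists.

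Away from this cluster no Vgll3 peak was shared. List 1 had 3 further summits, of 4.55-fold, 4.41-fold and 4.04-fold with 13, 11 and 10 fragments. The last 2 lay beyond the high-coordinate end, nearer to the predicted gene Gm52259 than to Vgll3. List 2 alone had a stronger site 48.9 kb upstream of Vgll3, 9.24-fold over input with 27 fragments (interval 6.20 to 13.3). By −log10 q it ranked 172 among 6073 peaks without overlap in list 1. Within the cluster, the summit of list 2 nearest the start, at 2.75 kb, also overlapped no list 1 peak and was 4.54-fold with 12 fragments.

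Vgll4, whose protein competes with YAP for TEAD factors and restrains growth, held the strongest peak of these genes that was called in a single list. A peak in its span, 80.1 kb after the annotated start (chr6:114888706-114889204), was 17.4-fold over input in list 2 (49 fragments, interval 13.0 to 22.95, background 1.87). List 1 had no peak there, and its nearest summit lay 22.8 kb away. The peak ranked 2 by −log10 q among the 6073 peaks of list 2 that overlapped none of list 1. Of the 2671 list 2 peaks at least as strong, 2668 overlapped a list 1 peak.

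Only 2 Vgll4 sites were called in both lists. The site 27.6 and 27.7 kb after the start was 7.71-fold in list 1 (20 fragments, interval 4.85 to 11.7) and 11.5-fold in list 2 (32 fragments, 7.99 to 16.1), and it also lay in the span of the long non-coding RNA gene Gm38876. The site 4.79 and 4.78 kb after the start was 3.87-fold in list 1 (13 fragments) and 7.33-fold in list 2 (20 fragments). The fold was higher in list 2 at both, with overlapping intervals. List 2 alone also had summits of 8.03-fold and 5.47-fold in the span, and the 5.47-fold summit lay 1.78 kb after the start, the closest of any summit to a start in the promoter table for these genes. List 1 alone had summits of 5.88-fold upstream of the start, 5.14-fold in the span and 4.77-fold inside Atg7, the autophagy gene beside Vgll4. All 5 list 2 summits lay inside the Vgll4 span, against 3 of 5 in list 1.

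Vgll2, a cofactor known from skeletal muscle, had no summit in its short span of 5.97 kb. A site 40.8 kb upstream of its start (40.9 kb in list 2) was called in both lists. It was 13.2-fold over input in list 1 (35 fragments, interval 9.32 to 18.2) and 9.77-fold in list 2 (27 fragments, 6.56 to 14.1). The peak was broad, at 1606 bp in list 1 and 1101 bp in list 2, and 0.709% of list 1 and 3.35% of list 2 were as wide. List 2 had 3 more summits, of 5.58-fold, 4.95-fold and 4.19-fold with 15, 18 and 11 fragments. The last 2 of these lay nearer to Ros1, a receptor tyrosine kinase gene, than to Vgll2.

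**Figure D4:**
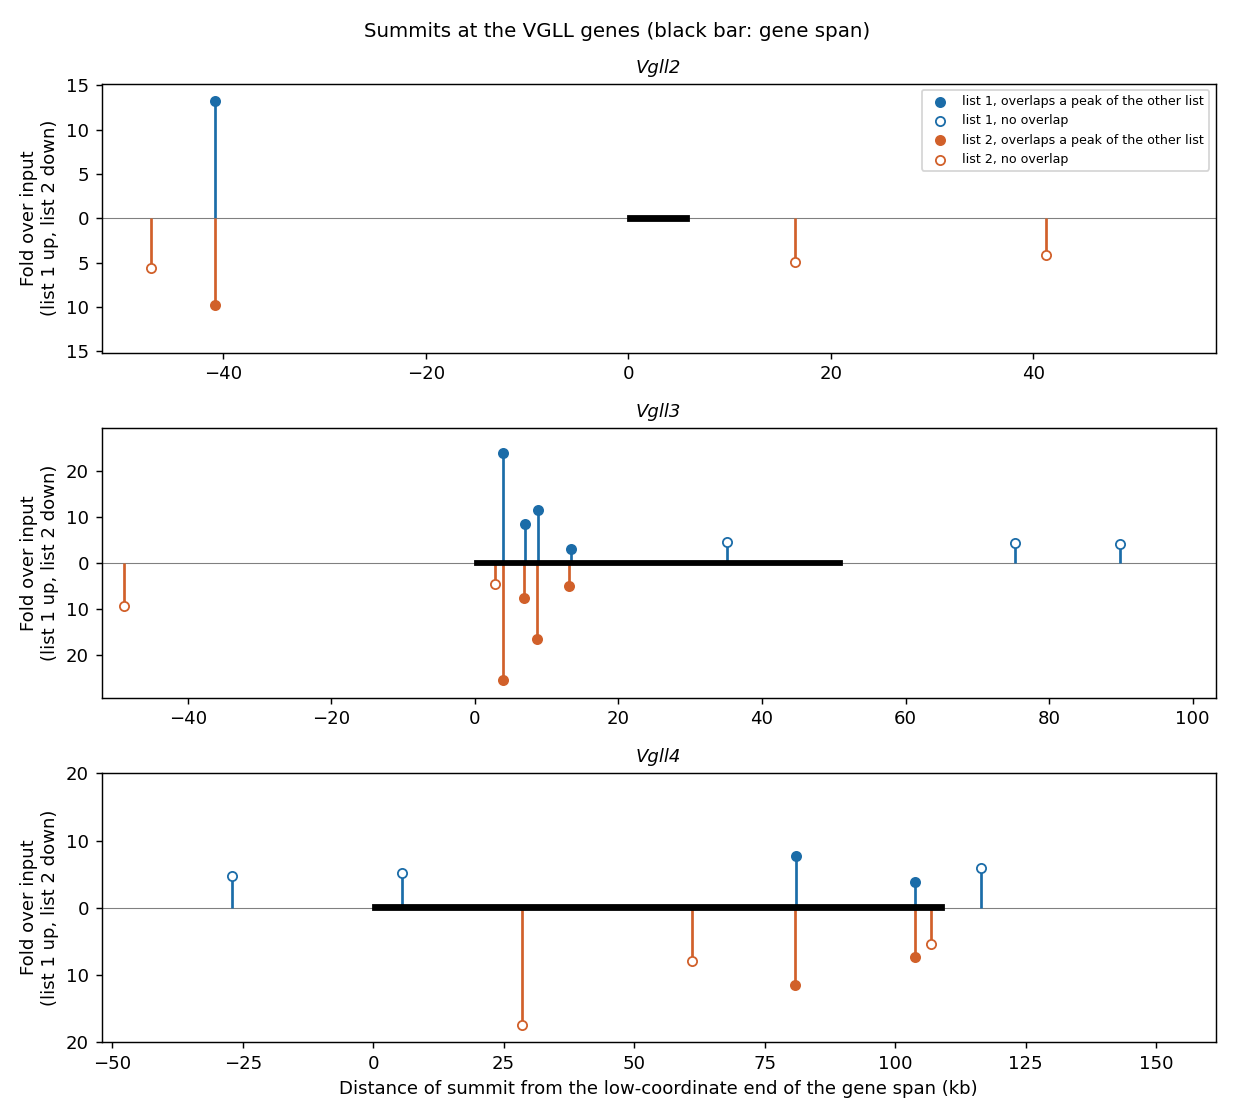
Fold over input (list 1 upward in blue, list 2 downward in orange) against the distance of each summit from the low-coordinate end of the span of Vgll2, Vgll3 and Vgll4 in kb, with each span as a black bar and vertical scales that differ between panels. Filled points overlap a peak of the other list and open points do not. The Vgll3 cluster lines up in both directions, and the open Vgll4 point at 17.4-fold in list 2 has no partner in list 1.

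Sharing between the lists went with strength. Of the 28 peaks in each list 18 overlapped a peak of the other, or 64.3% of each (Wilson interval 45.8 to 79.3), against 70.9% of all peaks in list 1 and 71.4% in list 2. Among peaks at least 10-fold over input, 8 of 8 were shared in list 1 and 6 of 7 in list 2, the Vgll4 peak being the exception. Over all peaks of that strength 98.8% were shared in list 1 and 98.1% in list 2. Below 10-fold, 10 of 20 were shared in list 1 and 12 of 21 in list 2, against 62.6% and 60.9% of all peaks. The share of strong peaks was near the background, since 8 of 28 in list 1 and 7 of 28 in list 2 reached 10-fold, against 22.9% and 28.1% of all peaks. The median fold was 5.72 in list 1 and 7.68 in list 2 for these genes, against 6.24 and 6.83 for all peaks.

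At most of the 18 paired sites the folds of the lists were within counting error of each other. The fold was higher in list 1 at 8 sites and in list 2 at 10, or 55.6%, against 61.7% of 15015 pairs with the higher fold in list 2. On the log2 scale the ratio of list 1 to list 2 had a median of -0.30 at these sites (SD 0.58), against -0.15 over all pairs. No site reached a ratio of 2 in either direction, against 1.90% of all pairs with list 1 higher and 5.81% with list 2 higher. At shares this low, 0 of 18 is not a result about these sites. The exact counting interval of the ratio held 1 at 15 of 18 sites. The 3 exceptions were all at Tead1. The site 15.9 kb below its span had a ratio of 0.530 (interval 0.389 to 0.706), and the site 40.9 kb into the span a ratio of 0.656 (0.452 to 0.932). The site 33.4 kb below the span had a ratio of 1.86 (1.14 to 3.03), with the unequal input given above. The value 1 makes no allowance for the median ratio over all pairs, 0.899. That median lay inside the interval of the site 40.9 kb into the span. It lay below the interval of the site 189.9 kb into the span, which had a ratio of 1.54 (0.996 to 2.44) and held 1. These intervals cover counting error of the ChIP libraries with the background held fixed, and not the error between cultures.

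**Figure D5:**
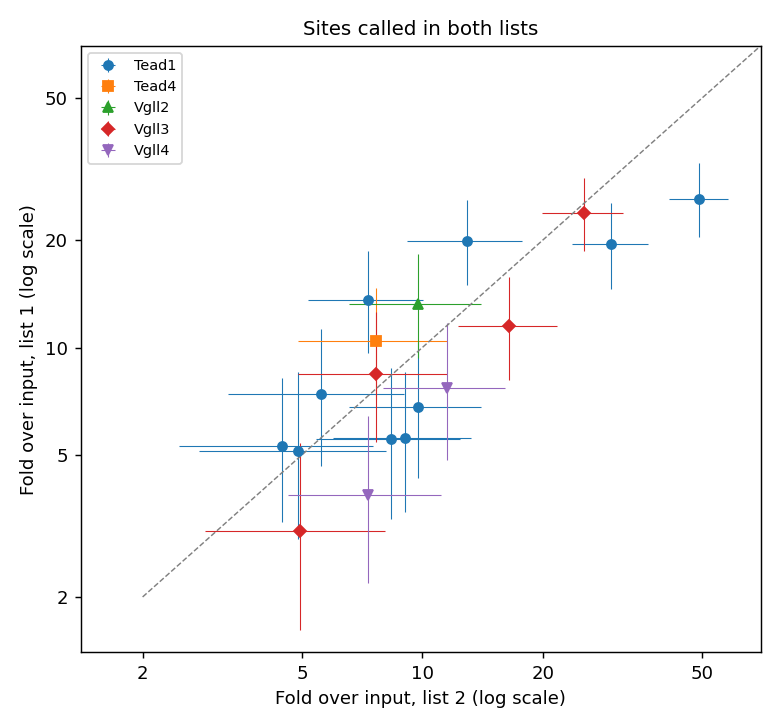
Fold over input in list 1 (vertical axis, log scale) against list 2 (horizontal axis, log scale) at the 18 sites called in both lists, marked by gene, with exact Poisson 95% intervals that cover counting error of the ChIP library. The dashed line marks equal folds. Most intervals cross it, and the Tead1 site at 26.1-fold and 49.2-fold lies farthest to the right.

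Of 27 other genes of the Hippo pathway, all matched in the gene table, 20 had a summit in list 1 and 22 in list 2 by the same rule, or 74.1% and 81.5%, against the 58.2% and 59.0% of all protein-coding genes given above. Their median count was 2 in each list, against 1 over protein-coding genes, and their median density was 1.02 summits per 100 kb in list 1 and 1.24 in list 2. Amotl2, which binds YAP, was highest in list 1 with 10 summits. Its paralog Amotl1 followed with 9 and Frmd6, an upstream Hippo component, with 8. In list 2 Amotl2 and the coactivator genes Wwtr1, which encodes TAZ, and Yap1 had 11 each. The median background of the Yap1 peaks in list 2 was 12.3 fragments, against 2.03 over all peaks of that list. In list 1 Yap1 had 5 summits with a median background of 4.54 fragments, against 2.07 over all peaks. Vgll1, the VGLL gene outside the 7, had 0 summits in each list. Peaks measure no expression, and a summit near a marker does not identify a cell type, so the cell type label was not tested. Of 8 cardiac fibroblast markers 7 had a summit within 10 kb of an end in list 1 and 6 in list 2, against 27.1% and 26.6% of all protein-coding genes. Of 8 cardiomyocyte markers 4 and 2 did, of 6 endothelial markers 1 and 0, and of 6 leukocyte markers 2 and 1.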

How the data were processed

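ChIP and input libraries came from cardiac fibroblasts of newborn mice, 1 library per group. Per the submitters' processing notes, trimming used Trimmomatic 0.33, alignment used Bowtie 1.1.2 and peak calling used MACS2. Its settings and any removal of duplicates are not stated there. The 2 deposited lists give a score, a fold (ratio) over input, and −log10 p and −log10 q for each peak, as the authors' peak caller made them.

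The notes name the build mm39. Summits fell in 304 (list 1) and 276 (list 2) RefSeq GRCm38.p6 promoter windows, against 117 and 118 (list 1) and 119 and 108 (list 2) after shifts of 50 and -50 kb, so coordinates were read as GRCm38.

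ChIP fragments and local background were solved from fold and p. Fragments came out whole within 0.02 for 100% of peaks. Library totals are not in the lists. The median peak had 19 fragments in list 1 (quartiles 14 and 30) and 22 in list 2 (15 and 35). Intervals are exact Poisson, exact binomial for ratios, or Wilson. Pairs were each other's best overlap of at least 1 bp. Sequences are RefSeq's. The gene table has no exons, so exon, intron and UTR positions were not analysed here. The solver and the overlap steps were tested on simulated data. Python 3.11.15, scipy 1.17.1 and pandas 2.3.3 were used.

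All 7 genes are named with their 3 strongest peaks per list. Neighbouring genes were named where a summit lay in or nearer to them, and pathway genes for the highest 3 counts or a density above that of Vgll3. Genes and lists were chosen with earlier results of these data known, and no test was run.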

Additional observations from a re-analysis of the deposited data

How the results depend on the processing

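The sign of the median ratio between the lists was the same under every alternative run. It was also that of the median over all pairs, -0.15 on the log2 scale. Of the 18 paired sites, list 1 was higher at 8 and list 2 at 10. Of 46 alternative values of the main results 36 stayed within the limit used. That limit was the interval or spread where one was given, and otherwise 1.5 times the value. With summits in the spans only, list 1 kept 17 summits, and the density in list 2 was 3.77 per 100 kb. In each list 4 genes had a summit with spans only, and also with 10 kb beyond either end. The shared percentage in the spans was 82.4% of 17 peaks in list 1 and 73.7% of 19 in list 2, against 70.9% and 71.4% of all peaks. The 50 kb windows gave 64.3%, with a Wilson interval of 45.8 to 79.3 that held both shares of all peaks. With so few peaks, these differences are not a result about the spans. With the 5000 strongest peaks per list, 8 summits were left in list 1 and 6 in list 2, or 0.664 and 0.498 per 100 kb. At this setting 4 genes had a summit in list 1 and 3 in list 2. It keeps 5000 of the 21285 peaks of list 1 and 5000 of the 21218 of list 2, so lower counts follow by construction. The medians and shares over protein-coding genes given above are for the full lists and do not apply to it. Without Tead1, a setting chosen after the data were seen, 15 summits were left in list 1 and 17 in list 2. On the log2 scale the median ratio of list 1 to list 2 ran between -0.52 (spans only) and -0.09 (summits within 100 bp, and fragments over the genome-wide floor). No paired analysis was possible because each group had 1 library and neither list is tied to a group. Peaks with 10 to 20 fragments have wide intervals, and the absence of a call sets no upper limit on binding.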

Other observations

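Beyond the 50 kb limit the nearest summits to Tead1 lay 58.7 kb below its span, called in both lists and 29.0 kb from Parva, with folds of 12.9 in list 1 and 13.4 in list 2. At Tead4 the nearest summits outside lay 64.1 kb from the span in both lists, with folds of 14.7 in list 1 and 12.5 in list 2, each above every Tead4 peak inside the limit. These lay inside Foxm1, a cell cycle transcription factor gene, 1.96 kb from its end. The farthest summits inside the limit were at Vgll3 in list 2, 48.9 kb out at 9.24-fold, and at Vgll2 in list 2, 47.1 kb out at 5.58-fold.

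Over all promoter windows, those with the TEAD letters GGAATG or CATTCC overlapped a peak in 4.24% of 4817 cases in list 1 and 3.84% in list 2. Windows without these letters did so in 1.38% of 28034 cases in list 1 and 1.30% in list 2. Windows of neighbouring starts overlap in part, and no test was run.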
